A study of Mus musculus with 20 samples.

Results

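The respiratory chain of the inner mitochondrial membrane was followed through the mRNAs of its nuclear-encoded subunits in mouse livers with and without *Cideb*, a gene of lipid droplet growth and VLDL lipidation. Members were taken by symbol from a table of 50559 genes. The symbols were *Nduf* followed by a, b, c, s or v and a number, *Sdha* to *Sdhd*, and those that begin with *Uqcr*, *Cox4* to *Cox8* or *Atp5*. A gene was kept at 10 or more counts in at least 5 of 20 livers, and rows named as pseudogenes with -ps (15) were left out. Of 90 remaining symbols 80 passed and 10 did not. The 80 members fell into 37 for complex I, 4 for complex II, 8 for complex III, 14 for complex IV and 17 for complex V. *Ndufa4* and its paralog *Ndufa4l2* were placed in complex IV, where the *Ndufa4* protein belongs. By role, 20 members were core or catalytic subunits and 59 were accessory, and *Ndufs6b* is annotated as a pseudogene.

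The livers came from male mice homozygous for a floxed *Cideb* allele, in 4 groups of 5. WT livers had received AAV-TBG-GFP and KO livers AAV-TBG-Cre, and each vector was combined with a western diet (WD) or with CDA-HFD, a high-fat diet that lacks choline and supplies defined L-amino acids. The floxed allele and a vector were thus shared by all 4 groups, and the TBG promoter limits Cre to hepatocytes, so other liver cells kept *Cideb*. The labels give 3 months for both diets, while the study's methods describe longer feeding on WD than on CDA-HFD. Diet and feeding time cannot be told apart here, and whether libraries of both diets were made together is not given in the sources used here. The mice were on a C57BL/6 background and received the vector at 6 weeks of age. Depth on genes ran from 11697049 to 16827147 reads a liver, and member transcripts took 0.766% to 0.969% of them on WD and 0.600% to 0.774% on CDA-HFD. *Cideb* was at 6.06 ± 1.12 normalised CPM (read counts scaled to TMM library sizes; mean ± SD, n = 5) in WT and 0.155 ± 0.165 in KO livers on WD, and at 3.05 ± 0.653 and 0.163 ± 0.154 on CDA-HFD, with no overlap on either diet (edgeR adjusted p = 0.000766 and 0.00268).

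Hepatocyte markers such as *Alb* and *Apob* were abundant in every liver, with 42654 to 132671 summed normalised CPM over 10 genes, whereas 6 of 7 striated muscle and 5 of 5 adipocyte markers stayed under 10 counts in each liver. Some livers stood apart from their groups. KO liver 5 on CDA-HFD was the lowest of its 5 for 68 of the 80 members, and it was also the lowest of its group for the hepatocyte markers and the highest for the macrophage, stellate cell and cholangiocyte markers. KO liver 3 on CDA-HFD was the highest for 71 members. On WD, KO liver 3 was the highest for 52 members and WT liver 3 for 63, while an equal share would be 16. Results that rest on such a liver are given with and without it.

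Oxidative phosphorylation passes electrons from NADH (complex I) and succinate (complex II) through ubiquinone to complex III, cytochrome c and complex IV, where oxygen is reduced. The protons pumped on the way drive ATP synthase, complex V. Hepatocytes rely on it to burn fatty acids, and most subunits are encoded in the nucleus, with a small core of complexes I, III, IV and V encoded in mitochondrial DNA (mtDNA). Nuclear subunit genes carry recognition sites for the transcription factors NRF1, GABPA, ERR family receptors and YY1, which are known regulators of mitochondrial genes.

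Those motifs are shown because most members moved together between diets. RefSeq promoters (GRCm38.p6, 250 bases before to 50 after the start site) were found for 66 of the 80 members and searched on both strands. NRF1 letters GCGCATGCG were present in 8 of the 66 (12.1%) and in 1.95% of all 27025 genes with a promoter, and ACCGGAAG for GABPA in 7 (10.6%) against 2.60%. AAGATGGCG for YY1 was present in 7 (10.6%) against 1.64%, and TCAAGGTCA for ERR receptors in 2 (3.03%) against 0.466%. In all, 23 of the 66 held at least 1 of the 4 motifs. The NRF1 letters are nearly palindromic, so a match on either strand may overlap one on the other. The windows below are printed in the direction of the gene, with the motif in capitals, for members that carry results further on. The motif lies on the opposite strand in *Atp5g3*, *Sdhd* and *Uqcr11*.
Atp5g3 ERR, chr2:73911360-73911388, minus strand: tgttacaaagTGACCTTGAgcgtcttccc
Sdhb GABPA, chr4:140961266-140961293, plus strand: gctcggagaaACCGGAAGcggccttcca
Sdhd GABPA, chr9:50603878-50603905, minus strand: cgtctcctgcCTTCCGGTtcacgcttca
Uqcr11 NRF1, chr10:80406808-80406836, minus strand: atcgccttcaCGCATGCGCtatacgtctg
Uqcrc1 NRF1, chr9:108936668-108936696, plus strand: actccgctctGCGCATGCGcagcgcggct
Ndufa9 YY1, chr6:126849097-126849125, minus strand: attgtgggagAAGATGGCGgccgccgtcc
Ndufs7 YY1, chr10:80249463-80249491, plus strand: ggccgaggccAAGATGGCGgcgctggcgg
Atp5g2 NRF1, chr15:102671071-102671099, minus strand: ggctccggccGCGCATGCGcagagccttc

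Levels were compared between genes as normalised CPM per kb of transcript. In WT livers on WD the highest level belonged to *Atp5b*, the catalytic beta subunit of ATP synthase, at a mean of 634 CPM per kb. *Uqcrq* of complex III followed at 419, *Atp5a1*, the alpha subunit beside *Atp5b*, at 405, and *Cox4i1* of complex IV at 396. *Sdha*, the flavoprotein that oxidises succinate, led complex II at 225 CPM per kb. Complex I was lower, led by the accessory subunit *Ndufb9* at 163, and its NADH-binding subunit *Ndufv1* was at 82.5 CPM per kb.

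**Figure D1:**
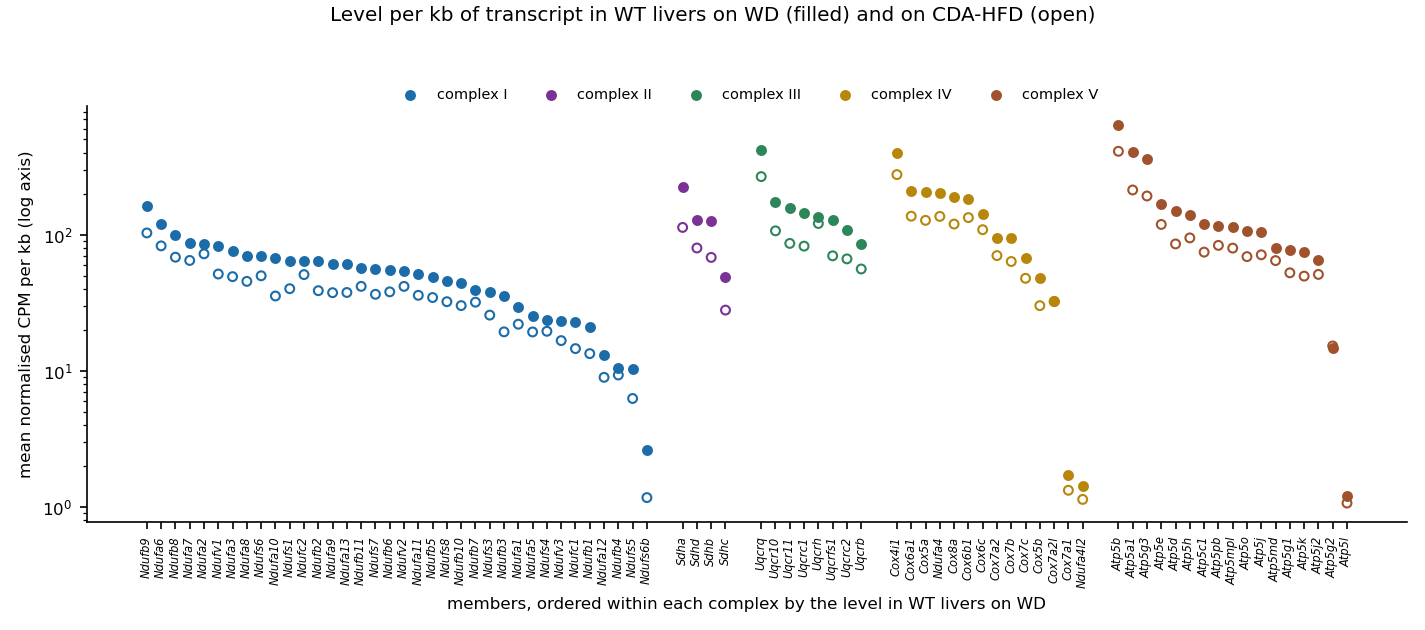
Mean level of the members in WT livers, with 1 complex I member not shown, as normalised CPM per kb of transcript on a log axis, with filled points for WD and open points for CDA-HFD and colours for the complexes. With the scaling used, most open points lie below their filled point, while *Cox7a2l* and *Atp5g2* have nearly the same level on both diets.

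The liver held 1 main form of most subunits that exist as isoforms. Of the muscle-type forms, *Cox6a2* had at most 11 counts in any liver and *Cox8b* at most 6, and neither passed the filter, whereas *Cox6a1* stood at 208 CPM per kb in WT livers on WD. *Cox4i2* had at most 6 counts beside the 396 CPM per kb of *Cox4i1*, and *Cox6b2* at most 12. *Cox7a1*, the muscle form of its subunit, passed with 2 to 16 counts and a level of 1.73 CPM per kb, against 94.4 for the liver form *Cox7a2* and 32.6 for *Cox7a2l*, a relative involved in supercomplex assembly. *Ndufa4* was at 202 and *Ndufa4l2* at 1.43 CPM per kb. The 3 genes for the same mature c-ring subunit of ATP synthase differed widely, with *Atp5g3* at 356, *Atp5g1* at 76.6 and *Atp5g2* at 14.8 CPM per kb. Close to the count filter stood *Atp5l*, with 5 to 15 counts (10 or more in 7 livers), *Cox7a1* (6 livers) and *Ndufs6b* (11 livers) just inside, and *Cox6b2* (2 livers) and *Cox6a2* (1 liver) just outside. *Atp5k* and *Atp5j2*, other small subunits of ATP synthase, had median counts of 331.5 and 800.5. Whether the low count of *Atp5l* reflects its expression or the assignment of its reads was not tested. Reads of *Ndufs6b* and its parent gene *Ndufs6* are not surely separated, since the counting of shared reads is not described.

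Diet was compared first in the livers that kept *Cideb*. On CDA-HFD, WT livers held fewer subunit transcripts of all 5 complexes than on WD, and complex II fell furthest. The summed level of complex II was 53.3% of its WD mean, at 592 ± 72.2 against 1110 ± 69.3 normalised CPM. Complex V stood at 61.2%, complex III at 61.4%, complex I at 66.2% and complex IV at 69.0%. With TMM scaling, in no complex did the summed levels of the 5 livers on either diet overlap. The size of the fall depends on that scaling. As a share of counted reads, members took 0.766% to 0.830% in WT livers on WD and 0.600% to 0.708% on CDA-HFD. In whole liver RNA, fewer hepatocytes and less of these RNAs per hepatocyte cannot be told apart.

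**Figure D2:**
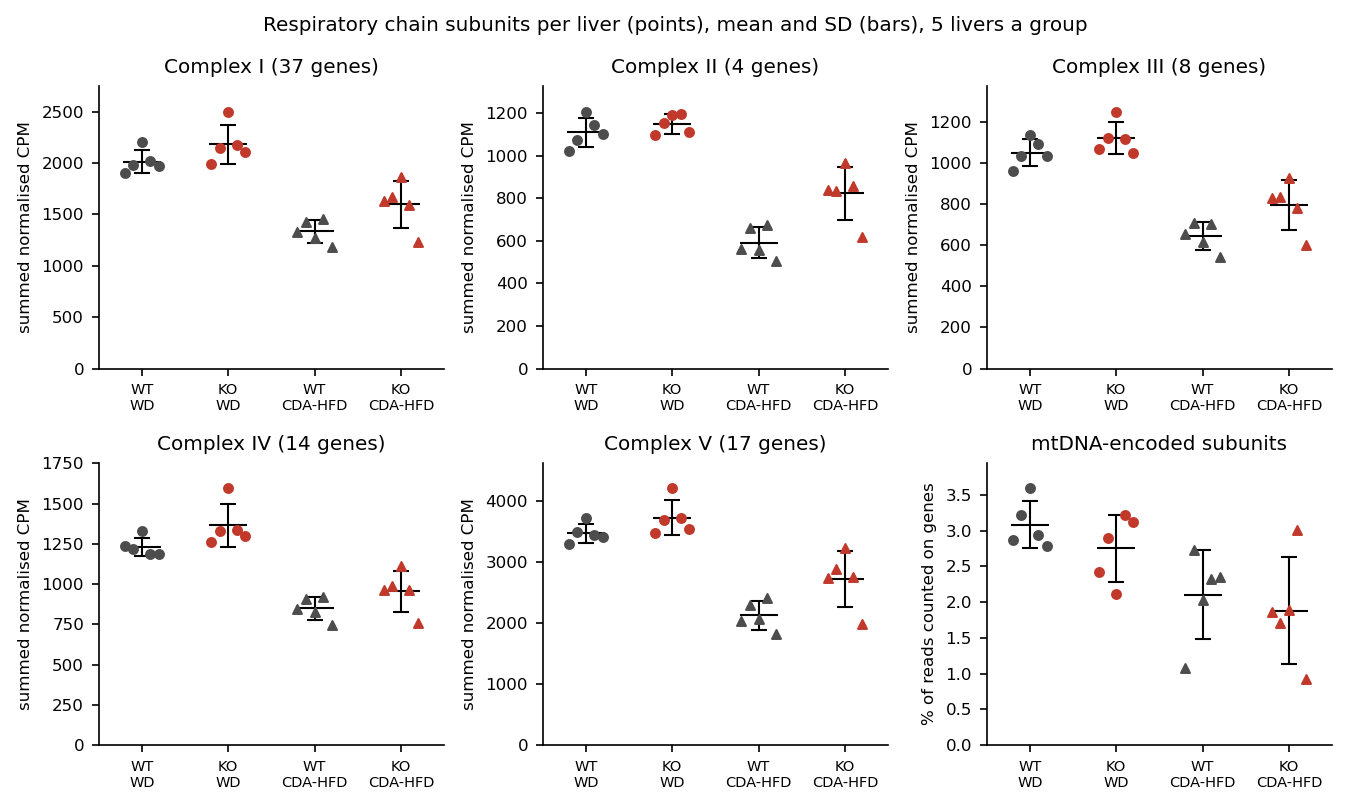
Summed normalised CPM of the members of each complex, and the share of counted reads on mtDNA-encoded subunits in percent, for each liver (points) with mean and SD (bars) in the 4 groups of 5. With TMM scaling, the summed levels of WT livers on CDA-HFD lie below those of all WD livers in each complex, and the lowest KO point on CDA-HFD is liver 5.

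By gene, 71 of 78 members tested were lower on CDA-HFD in WT livers by edgeR's quasi-likelihood test (Benjamini-Hochberg adjusted over all genes, threshold 0.05) and 0 were higher. Over all 16726 genes tested, 25.2% were lower and 25.9% higher. Lower members numbered 35 of 36 in complex I, 4 of 4 in complex II, 7 of 8 in complex III, 11 of 14 in complex IV and 14 of 16 in complex V. The median log2 fold change was -0.57 over the members and 0.00 over all genes, and by complex it was -0.55, -0.85, -0.71, -0.52 and -0.57 from I to V. Both groups stood apart without overlap for 67 members, all lower, against 17.8% of all genes separated and lower and 19.3% separated and higher. Direction held with DESeq2 and with RLE size factors (71 lower each), and 69 to 71 were lower when 1 liver was left out. Of all genes 26.1% were lower with DESeq2, 25.3% with RLE factors and 21.5% to 24.7% with 1 liver left out. With library size only, the scaling alternative that assumes no composition difference, 30 members were lower and 3 higher, and the median of all genes itself moved to 0.42, so that the members lay 0.57 below it as before. In that fit 9.39% of all genes were lower and 54.5% higher.

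Succinate dehydrogenase fell most. *Sdha* read 592, 628, 696, 676 and 676 normalised CPM in WT livers on WD and 310, 360, 315, 375 and 279 on CDA-HFD. Its lowest WD liver thus lay well above its highest CDA-HFD liver, and the log2 fold change was -1.0 (SE 0.11, edgeR adjusted p = 3.16e-05). *Sdhb*, the iron-sulfur subunit of the same enzyme, fell by 0.89 on the log2 scale (edgeR adjusted p = 0.000126). The membrane anchors *Sdhc* and *Sdhd* fell by 0.81 and 0.69 on that scale, without overlap in either. The GABPA letters printed above for *Sdhb* and *Sdhd* were shared with 5 other members, and the median log2 fold change was -0.55 with those letters and -0.57 without. With and without their letters the medians were -0.61 and -0.56 for NRF1, and -0.57 and -0.57 for YY1. For ERR they were -0.80 and -0.56, with only 2 carriers.

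In complex I, *Ndufa10*, an accessory subunit of the membrane arm, fell by 0.93 on the log2 scale (edgeR adjusted p = 8.38e-05). The smallest adjusted p belonged to *Ndufb3*, another accessory subunit, which measured 24.6, 27.9, 29.7, 26.5 and 25.8 normalised CPM on WD and 17.1, 15.6, 13.1, 13.9 and 14.1 on CDA-HFD. Those values did not overlap and gave a log2 fold change of -0.87 (SE 0.09, edgeR adjusted p = 3.09e-05). *Ndufs1* and *Ndufv1*, core subunits that carry electrons from NADH towards ubiquinone, each fell by 0.69 on the log2 scale.

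Within complex III, *Uqcr11*, a small accessory subunit, read 68.3, 62.5, 74.5, 73.2 and 70.1 normalised CPM on WD and 37.0, 41.9, 37.6, 41.8 and 33.6 on CDA-HFD. Again no liver overlapped, and the log2 fold change was -0.87 (SE 0.08, edgeR adjusted p = 1.78e-05). *Uqcrfs1*, the Rieske iron-sulfur protein, fell by 0.88 and *Uqcrc1*, an accessory subunit also called core protein 1, by 0.82 on the log2 scale. Among subunits of cytochrome c oxidase, *Cox5a* went from 136, 134, 140, 131 and 126 normalised CPM on WD to 86.0, 90.6, 72.2, 89.8 and 72.0 on CDA-HFD. Its log2 fold change was -0.71 (SE 0.09, edgeR adjusted p = 6.62e-05), again without overlap, while *Cox4i1* fell by 0.53 on that scale (edgeR adjusted p = 0.00183).

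For ATP synthase, *Atp5a1* measured 918, 984, 1095, 1010 and 991 normalised CPM on WD and 481, 575, 495, 632 and 444 on CDA-HFD. No livers overlapped, with a log2 fold change of -0.93 (SE 0.12, edgeR adjusted p = 8.26e-05). *Atp5b* fell by 0.64 on the log2 scale (edgeR adjusted p = 0.000556). The c-ring genes differed among themselves. *Atp5g3*, the most abundant of the 3 and a carrier of the ERR letters printed above, fell by 0.90 on the log2 scale (edgeR adjusted p = 3.15e-05) and *Atp5g1* by 0.55 (edgeR adjusted p = 0.00268), while *Atp5g2* read 5.72, 5.93, 7.34, 6.15 and 7.59 normalised CPM on WD and 4.96, 8.39, 6.85, 7.52 and 5.90 on CDA-HFD. The *Atp5g2* values overlapped throughout, with a log2 fold change of 0.03 (SE 0.16, edgeR adjusted p = 0.906).

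The 7 members tested that did not pass were *Atp5g2*, *Cox7a2l*, *Ndufb4*, *Uqcrh*, *Atp5md*, *Ndufa4l2* and *Cox7a1*. *Cox7a2l* was the flattest of the well-measured ones, at 35.8, 34.3, 34.4, 35.7 and 35.4 normalised CPM on WD and 37.4, 37.4, 33.9, 33.1 and 32.1 on CDA-HFD (log2 fold change -0.02, SE 0.07). These are levels relative to the TMM scaling. With library size only, *Cox7a2l*, *Atp5g2* and *Uqcrh* were the 3 higher members, with log2 fold changes of 0.40, 0.44 and 0.25.

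**Figure D3:**
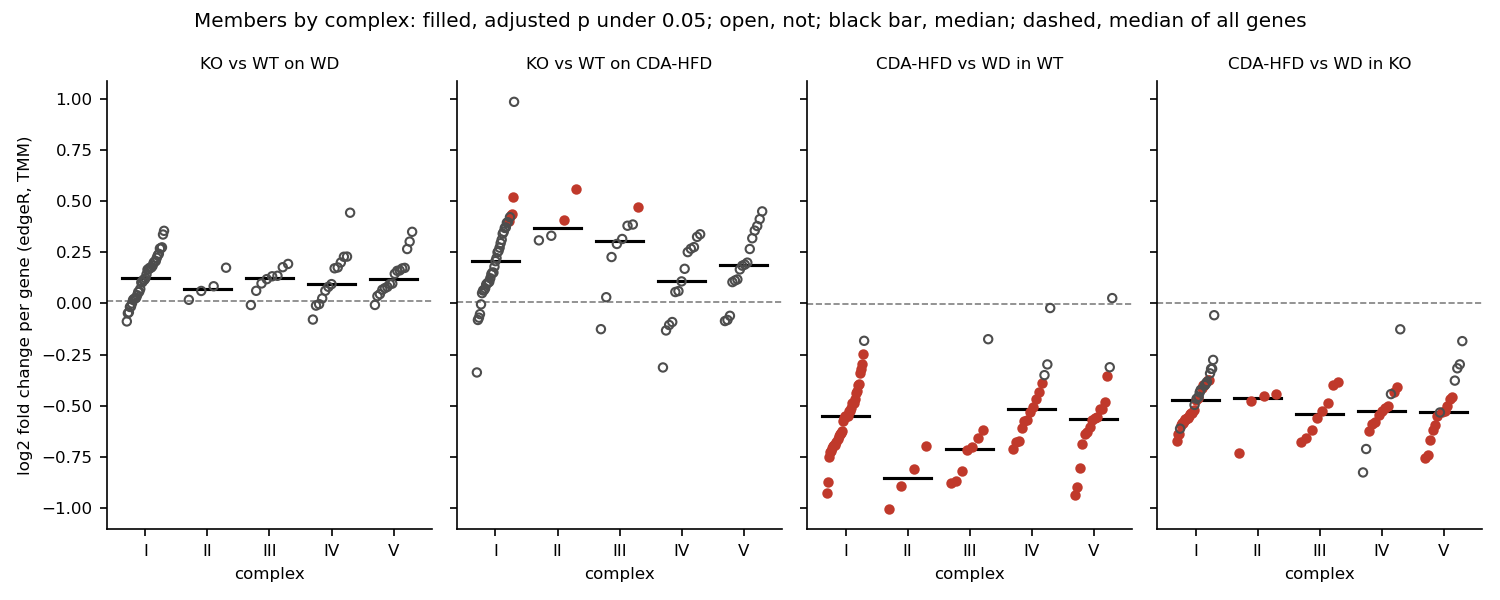
Log2 fold change of each tested member by complex in 4 comparisons (edgeR with TMM scaling), with filled points for an adjusted p under 0.05, black bars for the median of a complex and a dashed line for the median of all genes. Filled points lie below 0 in both diet panels and above 0 in the panel of KO against WT on CDA-HFD. With library size only the members of that last panel centre on 0.00 and 4 of its 5 calls are lower, beside 6.93% of all genes lower and 3.01% higher.

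Markers of other cells moved with this diet difference. On CDA-HFD, 8 of 10 macrophage, 9 of 10 stellate cell, 8 of 8 cholangiocyte, 5 of 8 lymphocyte and 4 of 5 neutrophil markers tested were higher in WT livers by the same edgeR test. Of 10 hepatocyte markers 5 were lower (1 with library size only), as were 5 of 8 endothelial markers and 1 of 10 macrophage markers. Macrophage markers summed to 367 to 1048 normalised CPM in WT livers on WD and to 1801 to 3835 on CDA-HFD, and hepatocyte markers to 80260 to 131640 and to 42654 to 90364. Of the lists, only the lymphocyte list had a marker at 0 in all livers, *Trbc2*. The part of these cells in the lower subunit levels was not tested.

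**Figure D4:**
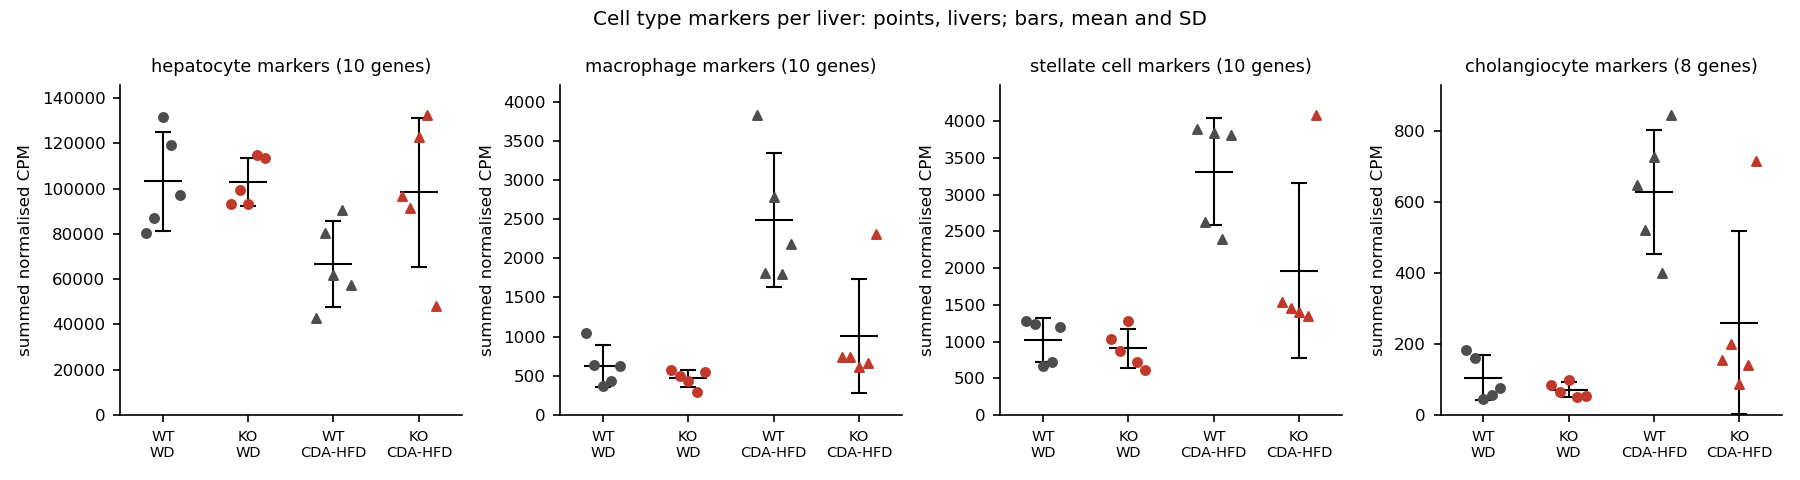
Summed normalised CPM of the markers of 4 cell types for each liver (points), with mean and SD (bars) in the 4 groups of 5. Macrophage, stellate cell and cholangiocyte markers lie higher in WT livers on CDA-HFD than on WD, and KO liver 5 on CDA-HFD (2315 CPM for the macrophage markers) lies far above the other KO livers of that diet (607 to 737 CPM).

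The same diet comparison was made in livers without *Cideb*. In KO livers too the summed levels with TMM scaling were lower on CDA-HFD in every complex with no overlap, for example 823 ± 127 against 1151 ± 45.6 normalised CPM for complex II and 2720 ± 456 against 3729 ± 289 for complex V. As a share of counted reads, members took 0.772% to 0.969% in KO livers on WD and 0.645% to 0.774% on CDA-HFD, and these overlapped. By edgeR 55 of 78 members were lower and 0 higher. Over all 16387 genes tested 7.85% were lower and 9.19% higher. The lower members numbered 23 of 37 in complex I, 4 of 4 in complex II, 8 of 8 in complex III, 9 of 13 in complex IV and 11 of 16 in complex V, with a median log2 fold change of -0.52 over all members. Both groups stood apart for 48 members, all lower, against 7.14% of all genes separated and lower and 8.09% separated and higher. With library size only 18 were lower and 0 higher, with a median 0.53 below that of all genes, of which 3.37% were lower and 20.6% higher. Leaving out 1 liver at a time gave between 32 lower members, without KO liver 2 on WD (4.8% of all genes lower), and 63, without KO liver 3 on CDA-HFD (7.68%). The count was 33 without KO liver 4 on WD or KO liver 2 on CDA-HFD, 35 without KO liver 1 on CDA-HFD, 36 without KO liver 5 on WD, 44 without KO liver 3 on WD and 50 without KO liver 5 on CDA-HFD.

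*Sdhb* showed one of the 3 largest falls among the members that passed. It measured 135, 157, 208, 167 and 143 normalised CPM in KO livers on WD and 102, 93.5, 119, 107 and 69.4 on CDA-HFD. The groups did not overlap, and the log2 fold change was -0.73 (SE 0.15, edgeR adjusted p = 0.00974). *Uqcrb*, the ubiquinone-binding subunit of complex III, read 39.3, 48.8, 47.5, 56.7 and 51.6 on WD and 29.9, 27.8, 36.1, 34.0 and 25.6 on CDA-HFD, a log2 fold change of -0.68 (edgeR adjusted p = 0.00454) without overlap. *Ndufa6*, an accessory subunit of complex I, fell by 0.54 (edgeR adjusted p = 0.00432) and *Ndufa4* of complex IV by 0.59 (edgeR adjusted p = 0.00629) on the log2 scale. *Atp5o*, part of the stalk of ATP synthase, fell by 0.53 on that scale (edgeR adjusted p = 0.014).

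*Atp5e* and *Atp5mpl*, small subunits of ATP synthase, were the other two of these, and for both KO liver 3 on WD was high. *Atp5e* measured 74.6, 79.7, 146, 74.4 and 77.8 normalised CPM on WD and 57.9, 52.7, 67.0, 47.3 and 44.4 on CDA-HFD (log2 fold change -0.75, edgeR adjusted p = 0.0252). Its call was lost without KO liver 2 on CDA-HFD and the log2 fold change was -0.52 at its smallest size among the fits that left out 1 liver. *Atp5mpl* was at 66.4 in that WD liver and at 38.1 to 42.9 in the others (log2 fold change -0.74, edgeR adjusted p = 0.0189).

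Of 11 subunits read in every comparison, *Sdha* (log2 fold change -0.45, edgeR adjusted p = 0.0272) and *Uqcrc1* (-0.40, 0.0307) passed with all livers and failed in 5 of the 10 fits that left out 1 liver. *Atp5a1* passed (-0.55, edgeR adjusted p = 0.0252) and failed in 3, *Ndufs1* failed in 2 and *Cox4i1* in 9 of them. *Ndufv1* (-0.38, edgeR adjusted p = 0.0574) and *Atp5b* (-0.32, edgeR adjusted p = 0.124) did not pass. Of 77 members tested in both diet comparisons, 53 were lower in WT and in KO livers, which is 53 of the 71 lower in WT and of the 55 lower in KO. Another 18 passed in WT alone, and *Uqcrh* and *Ndufb4* in KO alone. In KO livers 5 of 10 macrophage, 3 of 10 stellate cell and 5 of 8 cholangiocyte markers were higher on CDA-HFD, as were 4 of 6 lymphocyte, 1 of 3 neutrophil and 1 of 8 endothelial markers tested, and 0 of 10 hepatocyte markers passed (edgeR, 0 also at an unadjusted p under 0.05).

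The effect of *Cideb* loss was compared within each diet. On CDA-HFD, KO livers held more transcripts of some complex I, II and III subunits than WT livers, and no member was lower. With TMM scaling, summed levels were 823 ± 127 against 592 ± 72.2 normalised CPM for complex II, 2720 ± 456 against 2129 ± 235 for complex V, 796 ± 121 against 646 ± 68.5 for complex III, 1598 ± 227 against 1335 ± 111 for complex I and 956 ± 127 against 850 ± 69.8 for complex IV (mean ± SD, n = 5). The members that passed were *Ndufv1*, *Ndufa9*, *Ndufs7* and *Ndufb3* of complex I, *Sdha* and *Sdhc* of complex II, and *Uqcrc1* of complex III, and no single member of complex IV or V passed. These 7 of 78 (edgeR) stand beside 8.19% of all 17204 genes higher and 7.29% lower, so the share of members called was near that background. The members' log2 fold changes ranged from -0.34 to 0.99 with a median of 0.21, against 0.00 over all genes, and 65 of 78 lay above 0. The 0.99 was that of the annotated pseudogene *Ndufs6b*, with 3 to 16 counts a liver, which did not pass. Core members reached at most 0.56 and accessory members 0.47.

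Only *Uqcrc1* was separated, against 5.03% of all genes separated and higher and 4.53% separated and lower. It read 149, 150, 122, 148 and 111 normalised CPM in WT and 195, 203, 222, 176 and 151 in KO livers on CDA-HFD. Liver 5 of the KO group lay just above the highest WT liver, and the log2 fold change was 0.47 (SE 0.13, edgeR adjusted p = 0.035). For *Sdha* the WT values were 310, 360, 315, 375 and 279 and the KO values 489, 492, 567, 511 and 366. Only KO liver 5 fell within the WT range, and the log2 fold change was 0.56 (SE 0.14, edgeR adjusted p = 0.0241). *Ndufv1* was at 87.8, 89.2, 84.1, 97.5 and 68.4 in WT and at 129, 138, 138, 113 and 97 in KO livers. Here too KO liver 5 alone overlapped, by a narrow margin (log2 fold change 0.52, SE 0.13, edgeR adjusted p = 0.0239).

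*Ndufa9*, an accessory subunit near the ubiquinone site of complex I and a carrier of the YY1 letters printed above, rose by 0.44 on the log2 scale (edgeR adjusted p = 0.0377). *Ndufs7*, the core iron-sulfur subunit that hands electrons to ubiquinone, rose by 0.43 (edgeR adjusted p = 0.0454) and *Ndufb3* by 0.40 (edgeR adjusted p = 0.0476). *Sdhc*, an anchor of complex II, rose by 0.41 on the same scale (edgeR adjusted p = 0.049). The values nearest to passing in complexes IV and V were those of *Cox6a1* (log2 fold change 0.34, edgeR adjusted p = 0.13) and *Atp5h* (0.27, edgeR adjusted p = 0.0578). Of the other subunits read in every comparison, log2 fold changes were 0.29 for *Ndufs1*, 0.33 for *Sdhb*, 0.39 for *Uqcrfs1*, 0.27 for *Cox4i1*, 0.25 for *Cox5a*, 0.45 for *Atp5a1* and 0.41 for *Atp5b*, with edgeR adjusted p from 0.0714 to 0.17.

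**Figure D5:**
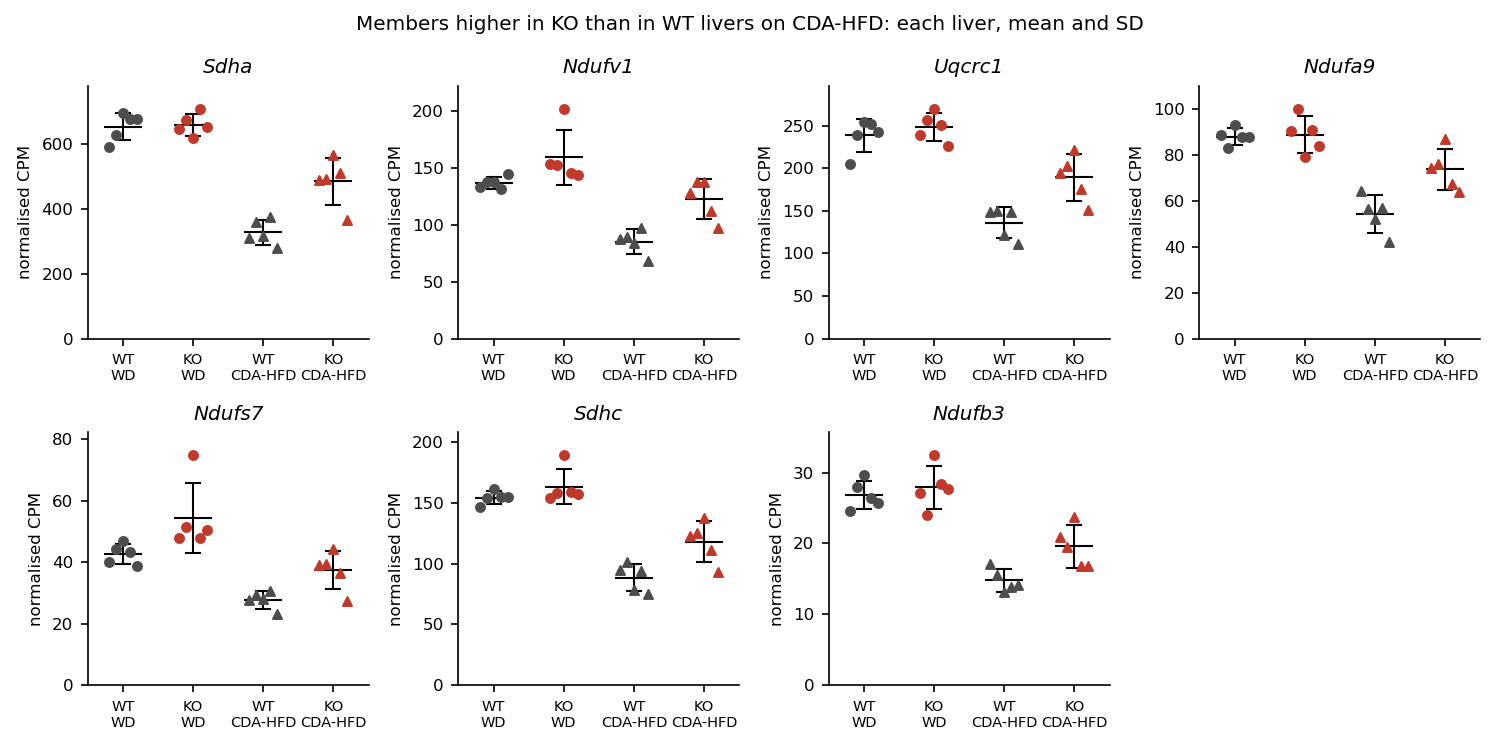
Normalised CPM of the 7 members higher in KO than in WT livers on CDA-HFD by edgeR with TMM scaling, for each liver (points) with mean and SD (bars) in the 4 groups of 5. On CDA-HFD KO liver 5 is the lowest KO point in every panel but that of *Ndufb3*, where it is level with liver 4, and with library size only *Sdha* alone of the 7 was still called.

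How many members passed depended on which livers were in the fit. KO liver 5 was singled out as the lowest of its group for 68 of the 80 members, so a fit without it is not independent of those values. Without it 38 of 78 members were higher on CDA-HFD in KO livers by edgeR, beside 19.6% of all genes higher in the same fit. The members numbered 17 in complex I, with the pseudogene *Ndufs6b* among them, 4 in complex II, 6 in complex III, 4 in complex IV and 7 in complex V. Left out instead, WT livers 3 or 5 or KO livers 1, 2 or 3 gave 0 called members (16 to 20 at an unadjusted p under 0.05), WT liver 1 gave 2, KO liver 4 gave 3, WT liver 4 gave 4 and WT liver 2 gave 5. Calls over all genes fell too. In the fits with 0 called members 2.05% to 2.94% of all genes were higher, against 8.19% with all livers. Without WT liver 1, KO liver 4, WT liver 4 or WT liver 2 that share was 3.96%, 4.73%, 7.76% and 6.11%. Scaling mattered as well. With library size only the all-gene median was -0.19 and that of the members 0.00, *Sdha* was higher (log2 fold change 0.36, edgeR adjusted p = 0.0336), and *Ndufb4*, *Cox7a2*, *Uqcrh* and *Cox6c* were lower, by 0.55, 0.34, 0.33 and 0.30 on the log2 scale. Of all genes 3.01% were higher and 6.93% lower in that fit.

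Core and accessory members were described separately, with no test of the difference. The median log2 fold change was 0.36 over 20 core members, of which 4 passed, and 0.17 over 57 accessory members, of which 3 passed. Without KO liver 5 the medians were 0.47 and 0.23, with 15 and 22 called. Transcripts of core members were longer, with a median of 1198.5 bases against 659, and across the 78 members, which share the same libraries, log2 fold change and length had a Spearman correlation of 0.34 (-0.07 over all genes). After trends with GC content and length were removed the medians were 0.37 and 0.19, with 0.08 over all genes.

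Some markers of macrophages, stellate cells and neutrophils were lower in the KO livers of this diet. Of 10 macrophage markers 5 were lower by edgeR (*Adgre1*, *Cd68*, *Csf1r*, *Cd14* and *Trem2*), as were the stellate cell markers *Acta2* and *Timp1* and all 5 neutrophil markers tested, and the hepatocyte marker *Hnf4a* was higher. No cholangiocyte, endothelial or lymphocyte marker passed, with 1 of 8, 4 of 8 and 0 of 9 at an unadjusted p under 0.05, beside 6076 of all 17204 genes. Endothelial log2 fold changes lay above 0 for 7 of 8 markers and below 0 for 1, with a median of 0.25. Macrophage markers summed to 1801 to 3835 normalised CPM in WT livers and to 607 to 2315 in KO livers, and hepatocyte markers to 42654 to 90364 and to 47989 to 132671. Without KO liver 5, 9 macrophage markers were lower and 1 higher, and 5 hepatocyte markers were higher, beside 21.8% of all genes lower and 19.6% higher. The part of these cells in the higher subunit levels was not tested.

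On WD, no member differed between KO and WT livers by edgeR (0 higher and 0 lower of 78), beside 0.0126% of all 15848 genes higher and 0.0631% lower. At an unadjusted p under 0.05 there were 9 members and 1702 genes. DESeq2 called 1 member, beside 0.404% of all genes higher and 0.631% lower in that fit. The median log2 fold change was 0.12 over the members and 0.01 over all genes, and 67 members lay above 0. The smallest adjusted p belonged to *Cox8a* of complex IV, the member DESeq2 called (log2 fold change 0.22, DESeq2 adjusted p = 0.0442). It read 107, 103, 113, 99.3 and 99.9 normalised CPM in WT and 116, 123, 125, 123 and 124 in KO livers. No livers overlapped, and the log2 fold change was 0.23 (SE 0.07, edgeR adjusted p = 0.281). Besides *Cox8a*, *Ndufs7* and *Atp5e* were separated and higher, 3 members in all and 0 lower, against 1.14% and 1.09% of all genes.

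For the other complexes the smallest adjusted p were those of *Ndufb11* (log2 fold change 0.27, edgeR adjusted p = 0.315), *Sdhb* (0.17, 0.637), *Uqcrh* (0.19, 0.417) and *Atp5g1* (0.30, 0.49). KO liver 3 carried part of these values. *Cox6a1*, for example, was at 273 normalised CPM in that liver and at 128 to 141 in the other KO livers. Without that liver the members' median was 0.05, with 65 of 78 above 0. Without WT liver 3, the highest of its group for 63 members, the median was 0.15, with 75 of 80 above 0. The subunits read in every comparison ranged from -0.02 (*Ndufs1*) to 0.22 (*Ndufv1*) on the log2 scale. No cell type marker passed on this diet, and at most 1 in a list had an unadjusted p under 0.05.

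Whether the diet effect differed between WT and KO livers was tested as an interaction over all 20 livers. No member passed by edgeR (0 of 80), beside 0.331% of all 17804 genes higher and 0.225% lower. At an unadjusted p under 0.05 there were 12 of 80 members and 2736 of 17804 genes, so the 2 shares were near each other. DESeq2 called *Sdha* alone (log2 difference 0.54, DESeq2 adjusted p = 0.0164), and library size only called *Uqcrh* alone, lower (-0.50, edgeR adjusted p = 0.0429). In edgeR *Sdha* had an interaction of 0.55 on the log2 scale (SE 0.15, adjusted p = 0.112), *Ndufa9* of 0.43 (adjusted p = 0.173), *Uqcrc1* of 0.42 (adjusted p = 0.205), *Atp5a1* of 0.38 (adjusted p = 0.32) and *Cox5a* of 0.20 (adjusted p = 0.494). The median was 0.07 over the members, 0.24 over the core and 0.01 over the accessory members. Without KO liver 5 on CDA-HFD 10 members passed, all higher, beside 6.17% of all genes higher in that fit. Among them were *Ndufs1*, *Ndufa9*, *Ndufa10*, *Ndufs6b*, *Sdha*, *Sdhc*, *Uqcrc1*, *Uqcrc2* and *Atp5a1*. Without KO liver 3 on CDA-HFD 0 passed, beside 0.0885% of all genes higher and 0.105% lower. In that fit the members' median was -0.02, with 39 above 0 and 41 below, against 49 and 31 with all livers. Without KO liver 3 or WT liver 3 on WD the median was 0.11 or 0.02.

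Of the 13 mtDNA-encoded subunits 7 could be measured: ND1, ND2, ND4, ND5, ND6, CYTB and COX1. The others had at most 10 counts in any liver, with ND4L, COX2, COX3, ATP6 and ATP8 at 0 in all 20, so these rows say nothing of expression. The share of counted reads on mtDNA-encoded subunits was 2.87%, 3.22%, 3.59%, 2.94% and 2.78% in WT livers on WD and 1.08%, 2.73%, 2.03%, 2.32% and 2.35% on CDA-HFD. Those groups did not overlap, and the share was lower by 0.980 percentage points on average (exact two-sided permutation test, p = 0.00794, the smallest possible, and 0.0317 adjusted over 4 comparisons). In KO livers it was 2.42%, 2.90%, 2.11%, 3.22% and 3.11% on WD and 1.87%, 1.71%, 1.89%, 3.01% and 0.926% on CDA-HFD. These overlapped (exact permutation test, p = 0.0556, adjusted 0.111). KO and WT livers overlapped on either diet (exact permutation tests, adjusted p = 0.307 on WD and 0.603 on CDA-HFD).

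By gene, all 7 measured mtDNA-encoded subunits were lower on CDA-HFD in WT livers (edgeR; 4 of 7 with library size only), with a median log2 fold change of -1.0. CYTB, the mtDNA-encoded core of complex III, was at 6225 ± 1241 normalised CPM on WD and 2804 ± 1139 on CDA-HFD (log2 fold change -1.16, SE 0.31, edgeR adjusted p = 0.00832). In KO livers ND6 alone passed (-0.72, SE 0.23, edgeR adjusted p = 0.0489), with a median of -0.72. No mtDNA-encoded subunit differed between KO and WT livers on either diet by edgeR, and 0 did at an unadjusted p under 0.05.

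Subunits filed under other symbols were read alongside. *Cyc1*, cytochrome c1 of complex III, fell from 140 ± 9.89 to 77.4 ± 10.3 normalised CPM by CDA-HFD in WT livers (log2 fold change -0.86, edgeR adjusted p = 5.01e-05). *Atpif1*, which encodes the inhibitor of ATP synthase, moved the other way, from 9.89 ± 1.71 to 27.5 ± 6.69 in WT livers (log2 fold change 1.46, edgeR adjusted p = 5.52e-05). It also rose in KO livers (0.95, edgeR adjusted p = 0.00611), and on CDA-HFD it was lower in KO than in WT livers (-0.68, edgeR adjusted p = 0.0457).

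Other gene groups of the pathway were counted the same way, and for several the direction of the calls in WT livers depended on the scaling. With library size only, 54.5% of all genes were higher on CDA-HFD in WT livers and 9.39% lower, and the counts below stand beside those shares. For KO against WT livers on CDA-HFD, 8.19% of all genes were higher with all livers and 19.6% without KO liver 5. With library size only 3.01% were higher and 6.93% lower in that comparison. Of 49 assembly factors tested, 26 were lower and 0 higher on CDA-HFD in WT livers (median log2 fold change -0.36), but 1 was lower and 6 higher with library size only. In KO livers 2 were lower, and 1 was higher in KO than in WT livers on CDA-HFD. That one was *Timmdc1*, a complex I assembly factor, at 33.6 ± 3.43 against 25.5 ± 2.48 normalised CPM (log2 fold change 0.40, edgeR adjusted p = 0.0263). Among those that passed, the largest falls were those of *Ndufaf1* in WT livers (-0.66) and *Tmem70* in KO livers (-0.53). *Lrpprc*, which holds mitochondrial mRNAs stable and had the most reads of the list, fell by 0.51 on the log2 scale in WT livers. Of 78 mitochondrial ribosomal proteins 36 were lower and 0 higher in WT livers (median log2 fold change -0.29), but 2 were lower and 24 higher with library size only, under which the median of all genes was 0.42. In KO livers 4 were lower, with *Mrpl16* the largest fall past the threshold in both genotypes (-0.83 and -0.61 with TMM scaling), while *Mrpl12*, with the most reads, did not pass (-0.12). *Mrpl33* alone differed by *Cideb* on CDA-HFD (log2 fold change -0.43, edgeR adjusted p = 0.0484).

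Electron carriers and enzymes that feed ubiquinone moved more. Of 20 tested, 17 were lower on CDA-HFD in WT livers (median log2 fold change -0.55; 8 lower and 2 higher with library size only), and 5 were lower and 1 higher in KO livers. *Coq8a*, which is needed to make ubiquinone, fell from 187 ± 36.7 to 43.9 ± 13.6 normalised CPM in WT livers (log2 fold change -2.10, edgeR adjusted p = 2.46e-05) and from 245 ± 27.9 to 83.0 ± 9.83 in KO livers (-1.57, edgeR adjusted p = 2.15e-05). *Pdss1*, which makes the tail of ubiquinone, rose in KO livers (0.48). On CDA-HFD 6 of the 20 were higher in KO than in WT livers (3 higher and 1 lower with library size only, 12 higher without KO liver 5): *Etfb*, *Etfdh*, *Sqor*, *Prodh*, *Coq8a* and *Coq9*. *Prodh*, the first enzyme of proline breakdown, was at 89.2 ± 10.9 in WT and 214 ± 44.1 in KO livers (log2 fold change 1.26, SE 0.15, edgeR adjusted p = 0.00305). Its diet effect differed between WT and KO livers (interaction 1.24, edgeR adjusted p = 0.0107), as did that of *Coq7* (0.79, edgeR adjusted p = 0.0255). *Etfdh*, which passes electrons from fatty acid oxidation to ubiquinone and had the most reads among them, was likewise higher there (log2 fold change 0.56, edgeR adjusted p = 0.0357).

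Of 14 tricarboxylic acid cycle genes, 12 were lower on CDA-HFD in WT livers (median log2 fold change -0.72; 7 lower and 2 higher with library size only), and 5 were lower and 1 higher in KO livers. *Suclg2*, a subunit of succinyl-CoA ligase, fell most in both among those that passed (-1.16 and -0.66), while *Idh3a* rose in KO livers (0.52), and *Ogdh*, with the most reads, fell by 0.37 on the log2 scale in WT livers. On CDA-HFD, 3 of the 14 were higher in KO than in WT livers (1 with library size only, 11 without KO liver 5), among them *Idh3b* and *Dlst*.

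Of 17 regulators of mitochondrial biogenesis, 13 were lower and 1 higher on CDA-HFD in WT livers (median -0.41), but 2 were lower and 3 higher with library size only, and 3 were lower in KO livers. *Esrrg*, an ERR family receptor, fell from 17.9 ± 3.42 to 4.90 ± 1.26 normalised CPM in WT livers (log2 fold change -1.87, edgeR adjusted p = 3.48e-05) and by 1.15 on the log2 scale in KO livers. *Pprc1*, a coactivator, rose in WT livers (0.49), and *Yy1*, with the most reads, fell by 0.27 on that scale. On CDA-HFD, *Esrra*, *Polrmt*, *Twnk* and *Polg* were higher in KO than in WT livers (0 of 17 with library size only, 7 without KO liver 5). *Esrra*, another ERR family receptor, was at 28.5 ± 5.27 in WT and 45.8 ± 8.92 in KO livers (log2 fold change 0.68, SE 0.16, edgeR adjusted p = 0.0219).

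Of 7 carriers of ATP, phosphate or protons tested, 2 were higher and 3 lower on CDA-HFD in WT livers, and 3 higher and 0 lower with library size only. *Slc25a4*, an ADP/ATP carrier, was the largest rise (log2 fold change 1.59) and *Slc25a5*, the carrier with the most reads, the largest fall (-0.55). In KO livers *Ucp2*, an uncoupling protein family member, rose by 1.25 and the phosphate carrier *Slc25a3* fell by 0.36 on the log2 scale. None differed by *Cideb* on CDA-HFD, where 5 of 7 had an unadjusted p under 0.05, beside 6076 of all 17204 genes tested. On WD no gene of any of these groups differed between KO and WT livers by edgeR. An unadjusted p under 0.05 was seen for 2 of 49 assembly factors, 11 of 78 ribosomal proteins, 3 of 20 electron carriers and 6 of 17 biogenesis regulators. Over all genes it was seen for 1702 of 15848.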

How the data were processed

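Liver RNA was sequenced in 20 mice. The authors deposited raw read counts per gene symbol with no normalization, with mm10 as the build per the labels. The labels name a directional NEBNext kit and the study's methods a Nugen Ovation kit with single-end reads, so whether strand was used in counting is unknown. The table's 5 entries that name no gene were left out. Alignment was not repeated.

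Each comparison was fitted on its 10 livers (the interaction on 20) in R 4.3.3 with edgeR 4.0.16: filterByExpr, TMM scaling, quasi-likelihood F test, Benjamini-Hochberg adjustment over all genes tested. DESeq2 1.42.0 was an alternative. Scripts were tested on simulated data. CPM per liver was scaled over all 20 livers, and lengths came from the GENCODE vM21 annotation. Each mouse gave 1 liver, so spread is between mice.

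The members and lists were chosen with earlier results of these data known. Named genes were, per comparison, the member of each complex with the smallest adjusted p, the 3 largest rises and falls past the threshold, 11 subunits read in every comparison (8 of them core), isoform sets, and the extremes of the lists. Members named outside that rule (those behind small counts of calls, those that did not pass, those with a printed promoter window) were chosen after their values were seen. Numbers in the labels do not pair livers: deviations of same-numbered livers from their group means had correlations of -0.367 to 0.349. Alternatives were RLE factors, library size only, DESeq2, no count filter, 10 counts in every library, a replicate block, removal of GC and length trends, all 20 livers in one fit, and leaving out each liver. Results for some genes are not reported here.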

Additional observations from a re-analysis of the deposited data

Results flagged for a closer look

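Dixon's gap test was applied to 36 values in each of the 4 groups of 5 livers, 144 checks in all. The values were 28 members, the sums by complex and over all members, and the shares of reads on members and on mtDNA-encoded subunits. By chance 1 in 20 would give 7.2, but the checks share the same livers and are not independent. It marked 13.

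KO liver 3 on WD was far above the other 4 KO livers of its group in 9 of the 13, in normalised CPM: *Atp5e* (146), *Atp5g1* (78.5), *Atp5h* (126), *Atp5mpl* (66.4), *Cox4i1* (436), *Cox6a1* (273), *Ndufv1* (202), *Uqcrfs1* (252.1) and the summed level of complex IV (1597). In that liver 28.7% of all tallied reads aligned to more than 1 place, and 0.969% of counted reads lay on members, the highest of the 20. Their part in these values was not tested.

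Of the other 4, WT liver 3 on WD was high for *Atp5g3* (278 CPM) and WT liver 1 on CDA-HFD for *Atp5e* (67.5 CPM). WT liver 1 on WD was low for *Ndufa10* (120 CPM) and KO liver 1 on WD for *Cox8a* (116 CPM).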

How the results depend on the processing

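The count of members lower on CDA-HFD in WT livers was 68 to 71 under every alternative except library size only, which called 33 (30 lower, 3 higher). Of all genes 9.39% were lower and 54.5% higher in that fit. In KO livers library size only called 18 of the 55, and leaving out 1 liver gave 32 to 63. Of all genes 3.37% were lower with library size only and 4.8% to 8.37% with 1 liver left out. For KO against WT on CDA-HFD the 7 members became 15 with DESeq2, 3 with no filter on low counts and 20 with all 20 livers in one fit, and 0 to 38 when 1 liver was left out. On WD the count was 0 to 0 when 1 liver was left out and 1 with DESeq2. The interaction gave 1 with library size only, 1 with DESeq2 and 0 to 10 when 1 liver was left out. The replicate block gave 0, 6, 71, 52 and 0 members for KO on WD, KO on CDA-HFD, diet in WT, diet in KO and the interaction. The labels give the numbers no shared source, and 1 or 2 of 5 livers a group correlated best with their own number. The mtDNA share of KO against WT livers on CDA-HFD (-0.222 percentage points) ran from -0.504 to 0.0169 when 1 liver was left out, and reversed to 0.0169 without KO liver 5. For diet in KO livers (-0.870) it ran from -1.15 to -0.631, with p = 0.0476 without KO liver 3 on WD and p = 0.0159 without KO liver 4 on CDA-HFD (exact permutation tests). No member named in a comparison for its adjusted p or size of change reversed under the alternatives run, while *Uqcrh* and *Cox7a2l*, named for not passing by diet in WT livers, went from -0.18 and -0.02 to 0.25 and 0.40 on the log2 scale with library size only. Leaving out 1 liver lost 51 of their calls, 18 for KO against WT on CDA-HFD and 33 for diet in KO livers, and kept every call for diet in WT livers. Members with few counts (*Atp5l*, *Cox7a1*, *Ndufs6b*, *Ndufa4l2*) had at most 27 in any liver, and the reason for their low counts was not tested. The cause of the changes between the alternatives was not tested.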
